A study of Homo sapiens with 35 samples.

Results

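TXNIP, ARRDC4, ARRDC3 and ARRDC2, 4 genes of the alpha-arrestin family, and MLXIP, MLXIPL and MLX, the 3 transcription factors through which glucose is known to drive members of this family, were followed over every group of an HCT116 array study. The 7 members were listed by name. Each was read from the transcript cluster (the set of probes summarised to 1 value) that carried its symbol alone, and where a gene had several such clusters the brightest over all 35 arrays was taken. All 7 were found among the 18404 genes tested, each with exactly 1 cluster. Alpha-arrestins are adaptor proteins that tether ubiquitin ligases of the NEDD4 family to membrane receptors and transporters and so promote their internalisation. TXNIP also binds thioredoxin and inhibits it, and TXNIP and ARRDC4 restrain glucose uptake. MLXIP (MondoA) and MLXIPL (ChREBP) are sensors of glucose phosphates that bind paired E-box motifs in DNA together with their common partner MLX, and TXNIP and ARRDC4 are their best known targets.

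HCT116 is an established human colorectal carcinoma line. Cells carried a hairpin against CDK8 (shCDK8), a hairpin against CDK19 (shCDK19) or a non-target hairpin (shControl), with 1 hairpin line for each target, so an effect of losing the kinase and any other property of that line cannot be told apart. In the glucose experiment shCDK8, shCDK19 and shControl cells spent 24 h in low glucose DMEM, and shControl cells also in high glucose DMEM, with 3 arrays in each of these 4 groups. The labels give no glucose concentration. In the 5FU experiment shCDK8, shCDK19 and shControl cells had 12 h of 5-fluorouracil, which inhibits thymidylate synthase, and shControl cells had DMSO, with 2 arrays per group. In the hypoxia experiment each line had 24 h at 1% oxygen, with 2 arrays per group, and in normal growth each line was left untreated, with 3 arrays per group. The cells were plated in McCoy's 5A medium, so the glucose experiment also differed from the others in medium. Knockdown cells in high glucose or DMSO and normoxic cells of the hypoxia experiment were not analysed here.

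All levels below are log2 signals as deposited, and a difference of 1 is a 2-fold change. The values run between a floor of 4.32 and a ceiling of 14.29, and no member touched either. Arrays of a group correlated at 0.976 to 0.998, and the 75th percentile of an array lay between 8.96 and 9.25. The shControl hypoxia pair was the least alike, at 0.976. The CDK8 cluster, which is shared with ADRA1B, was 4.07-fold to 6.70-fold lower in shCDK8 than in shControl cells over the 4 conditions with both lines, and CDK19 was 2.11-fold to 2.95-fold lower in shCDK19 cells. Of 7 epithelial markers EPCAM, KRT8, KRT18, KRT19 and CDH1 averaged 10.90 to 13.13, CDX2 8.82 and VIL1 6.43. Of 4 fibroblast markers DCN and LUM lay at the floor on 23 and 33 arrays, whereas COL1A1 averaged 8.74 and COL1A2 6.98. Of 3 leukocyte markers PTPRC lay at the floor on 13 arrays, CD3E averaged 6.11 and CD14 6.65, and the 3 endothelial markers averaged 5.50 to 6.39. Nothing in the labels says that replicate arrays came from separate cultures, so p-values measure the spread between arrays, which may be technical. Their small number limits the precision.

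The promoter windows of TXNIP, ARRDC4 and MLX are shown because they hold the E-box or paired E-box-like spellings searched. Regulation through these motifs was not tested. They are RefSeq sequences of GRCh38.p14, from 250 bases before to 50 bases after a transcription start, written 5′ to 3′ on the strand of the gene. Capitals mark the E-box CACGTG in ARRDC4 and MLX and a paired E-box-like repeat in TXNIP. The TXNIP window lies at chr1:145996530-145996829 on the minus strand, that of ARRDC4 at chr15:97960453-97960752 on the plus strand and that of MLX at chr17:42566850-42567149 on the plus strand.
TXNIP: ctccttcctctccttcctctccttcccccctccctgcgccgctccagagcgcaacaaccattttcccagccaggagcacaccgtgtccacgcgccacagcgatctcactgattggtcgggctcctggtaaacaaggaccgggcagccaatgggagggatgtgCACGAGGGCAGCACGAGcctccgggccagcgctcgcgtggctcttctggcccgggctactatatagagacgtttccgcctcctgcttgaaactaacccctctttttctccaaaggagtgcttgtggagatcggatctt
ARRDC4: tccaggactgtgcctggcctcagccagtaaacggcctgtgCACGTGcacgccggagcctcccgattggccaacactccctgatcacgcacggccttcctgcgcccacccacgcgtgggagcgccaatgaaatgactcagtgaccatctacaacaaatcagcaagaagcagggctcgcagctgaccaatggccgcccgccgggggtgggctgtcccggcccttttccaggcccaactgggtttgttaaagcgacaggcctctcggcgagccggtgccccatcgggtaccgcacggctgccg
MLX: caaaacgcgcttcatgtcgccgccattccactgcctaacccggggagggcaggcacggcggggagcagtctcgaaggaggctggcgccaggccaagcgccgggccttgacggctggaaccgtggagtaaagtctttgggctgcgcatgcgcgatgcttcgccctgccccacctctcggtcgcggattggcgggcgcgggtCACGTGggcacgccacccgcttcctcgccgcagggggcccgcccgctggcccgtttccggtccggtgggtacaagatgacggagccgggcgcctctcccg
In the TXNIP window the repeat starts at position -88 from the transcription start. A carbohydrate response element of this form has been described in the human TXNIP promoter, and the spelling searched, 2 copies of CACGNG with 5 bases between them, was chosen with that promoter in view. It occurred on either strand in 20 of 35116 human windows of 300 bases, or 0.057%. The E-box CACGTG occurred in 7.26% of them, and among the members at position -210 in ARRDC4 and at -50 in MLX. CCAAT, the box bound by NF-Y, occurred in 34.6% of windows. It stood at -140 and -105 in TXNIP, at -187, -128 and -67 in ARRDC4, at -66 in MLX, at -76 in MLXIP, at -241 in the upstream window of ARRDC3 and at -93 in the downstream window of ARRDC2. The searches covered both strands. A paired repeat can contain the E-box, but in these windows no match overlapped another. In the MLXIPL window, the downstream TXNIP window, the downstream ARRDC3 window and the upstream ARRDC2 window these letters were not found. A match is a description of letters and not a measured binding site.

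**Figure D1:**
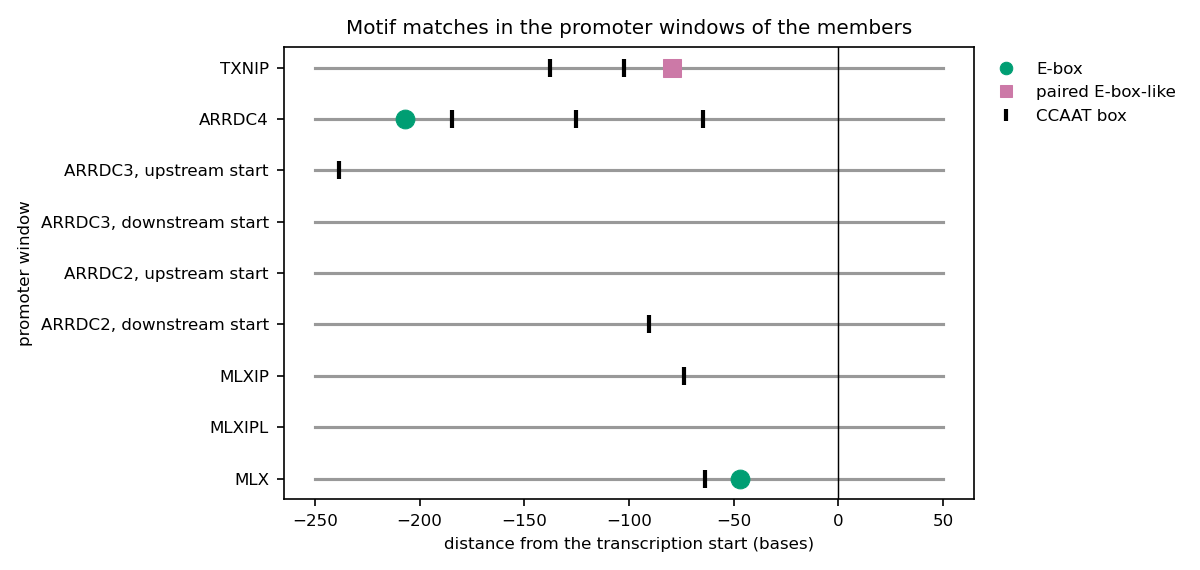
Positions of 3 motif spellings (symbols) in promoter windows of the 7 members (rows), as distance from the transcription start in bases. The E-box stands at -210 in ARRDC4 and -50 in MLX, the paired E-box-like repeat in TXNIP, and CCAAT in 6 of the 7 members.

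Among the arrestins ARRDC4 fell in low glucose in shControl cells and was 2.26-fold lower in low than in high glucose. TXNIP, ARRDC3 and ARRDC2 did not pass the test. Among the regulators MLXIPL fell by 0.30, and MLXIP and MLX rose by 0.17 and 0.12. In all, 2 members were higher and 2 were lower at an adjusted p under 0.05 (limma, Benjamini-Hochberg over 18404 genes). By the same rule 13.9% of all genes were higher and 17.3% lower, 31.2% in all, the share against which the 4 of 7 members are to be read. Errors after differences are standard errors.

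TXNIP, on chromosome 1 (145992435 to 145996579), measured 5.53, 5.45 and 5.43 in shControl cells in low glucose, against 5.67, 5.58 and 5.29 in high glucose. The ranges overlapped, and the lowest of these 6 arrays was a high glucose one. The difference was -0.041 ± 0.086 (SE), with a 95% interval of -0.23 to 0.15 and an adjusted p of 0.786. Its cluster was dim on every array, with a mean of 5.64 over all 35. That lies within the 5.50 to 6.39 of the endothelial markers. Whether the cluster reports TXNIP RNA was not tested, so a flat signal does not show that TXNIP RNA was unchanged.

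ARRDC4, on chromosome 15 (97960703 to 97973833), measured 6.37, 6.56 and 6.69 in low glucose, against 7.86, 7.65 and 7.65 in high glucose. Every low glucose array lay below every high glucose array. The difference of -1.18 ± 0.12 (adjusted p 3.47e-05) was rank 64 among 18404 genes ordered from the strongest decrease. In RNA from whole cultures, fewer expressing cells and less RNA per cell cannot be told apart. ARRDC3, an adaptor for beta-adrenergic and other receptors, lies on chromosome 5 (91368631 to 91383317). It measured 10.19, 10.14 and 9.91 in low glucose, against 10.20, 10.23 and 10.24 in high glucose. The 2 groups did not overlap, but the closest arrays were nearly equal, and the difference of -0.14 ± 0.070 did not pass the test (adjusted p 0.158). ARRDC2, a less studied family member on chromosome 19 (18001124 to 18014102), measured 8.83, 8.92 and 8.77 in low glucose, against 8.98, 8.79 and 8.96 in high glucose. Its groups overlapped, and its difference was -0.070 ± 0.062 (adjusted p 0.456).

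MLXIPL, which encodes the carbohydrate response element binding protein best known from liver, lies on chromosome 7 (73593202 to 73647907). It measured 10.27, 10.27 and 10.22 in low glucose, against 10.53, 10.63 and 10.51 in high glucose, with no overlap and an adjusted p of 0.000815. MLXIP, on chromosome 12 (122078756 to 122147344), went the other way, with 11.31, 11.22 and 11.24 in low glucose, against 11.15, 11.06 and 11.05 in high glucose (adjusted p 0.0226). MLX, on chromosome 17 (42567100 to 42573203), measured 10.68, 10.61 and 10.62 in low glucose, against 10.51, 10.53 and 10.51 in high glucose (adjusted p 0.0220). For both genes the groups did not overlap, yet the differences were small and near the threshold. With all 35 arrays in 1 fit the adjusted p was 0.0594 for MLXIP and 0.0846 for MLX. Leaving out high glucose replicate 3 or low glucose replicate 1 ended both calls. Leaving out high glucose replicate 2 ended that of MLXIP and high glucose replicate 1 that of MLX, with adjusted p up to 0.0835 for MLXIP and 0.0854 for MLX.

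**Figure D2:**
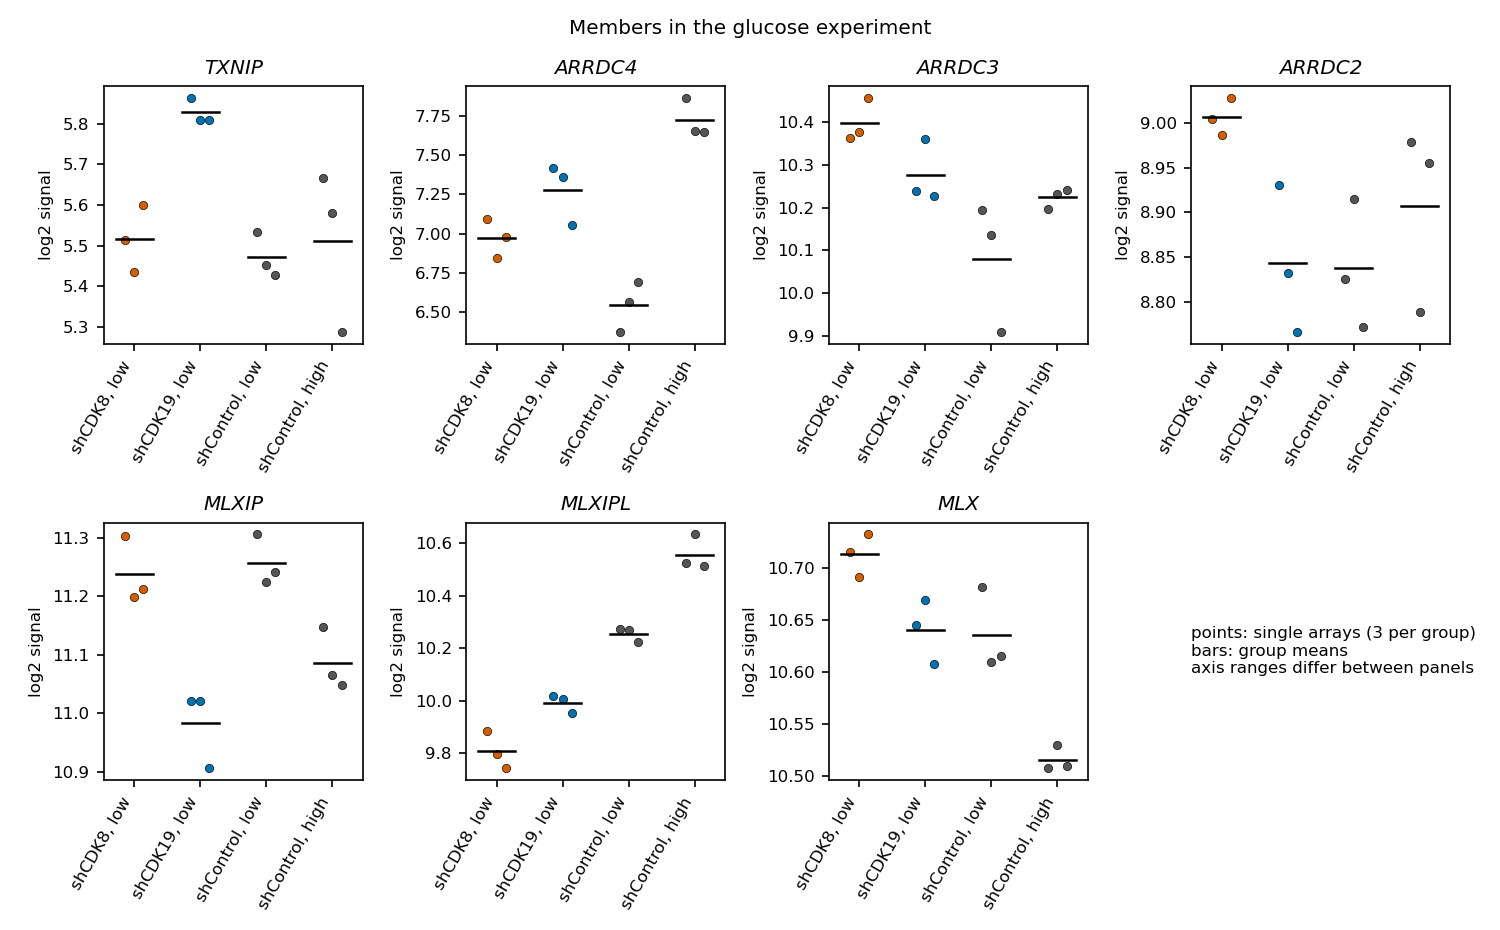
Log2 signal of the 7 members in the 4 groups of the glucose experiment, with 1 point per array (3 per group) and a bar at each group mean. ARRDC4 in low glucose shControl cells lies below every high glucose array, TXNIP overlaps between the 2 media, and MLXIPL is lowest in shCDK8 cells.

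Genes around the arrestin pathway moved in both directions in the same comparison, as did all genes. The list counts are to be read against 13.9% of all genes higher and 17.3% lower, 31.2% in all. The lists used here were other arrestins, the thioredoxin system, the network of MYC, MAX and MLX, other targets ascribed to ChREBP or MondoA in liver and muscle, and ubiquitin ligases that bind alpha-arrestins. Of 19 other ChREBP or MondoA targets, 8 were higher and 4 lower in low glucose, with a median of 0.17 against 0.017 for all genes. The fructose kinase KHK fell by 0.92 ± 0.066 and the acetyl-CoA carboxylase ACACB by 0.59 ± 0.076. The hexokinase HK2 was higher by 0.80 ± 0.11 and the G protein regulator RGS16 by 0.71 ± 0.077. Of 10 network genes 3 were higher and 1 lower. These were the repressors MXD1 at 1.45 ± 0.090, MNT at 0.40 ± 0.065 and MXD4 at 0.39 ± 0.077, and MXD3 at -0.32 ± 0.068. Of 9 ligases 3 were higher and 1 lower, with SMURF2 at 0.56 ± 0.037, ITCH at 0.38 ± 0.045, NEDD4 at 0.35 ± 0.081 and HECW1 at -0.52 ± 0.068. Of 11 thioredoxin system genes 1 was higher and 3 lower. The thioredoxin reductase TXNRD1 was at 0.81 ± 0.047, and the peroxiredoxins PRDX4, PRDX6 and PRDX1 were at -0.41, -0.22 and -0.14. Of 4 other arrestins only the beta-arrestin ARRB1 passed the test, at -0.30 ± 0.040.

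In low glucose both knockdown lines had more ARRDC4 and less MLXIPL than shControl cells. These comparisons use the same 3 shControl low glucose arrays, which are also the low arm of the glucose comparison, so their values are given side by side. ARRDC4 measured 7.09, 6.84 and 6.98 in shCDK8 cells and 7.42, 7.36 and 7.06 in shCDK19 cells, against 6.37, 6.56 and 6.69 in shControl cells. All 6 knockdown arrays lay above the 3 shControl arrays and below the 3 shControl arrays in high glucose. The rise was 0.43 ± 0.12 in shCDK8 (adjusted p 0.0236) and 0.73 ± 0.12 in shCDK19 cells (adjusted p 0.00161). MLXIPL measured 9.88, 9.80 and 9.74 in shCDK8 cells and 10.02, 10.01 and 9.95 in shCDK19 cells, against 10.27, 10.27 and 10.22 in shControl cells. It fell by 0.45 ± 0.048 in shCDK8 (adjusted p 9.70e-05) and by 0.26 ± 0.048 in shCDK19 cells (adjusted p 0.00359), with no overlap in either comparison.

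Some changes passed the test in a single line. TXNIP, the thioredoxin-binding member, measured 5.86, 5.81 and 5.81 in shCDK19 cells in low glucose, against 5.53, 5.45 and 5.43 in shControl cells, a rise of 0.36 ± 0.086 (adjusted p 0.0158). The shCDK8 arrays, at 5.51, 5.43 and 5.60, overlapped those of shControl, with a difference of 0.045 ± 0.086. All these TXNIP signals were dim, and whether the rise in shCDK19 cells is one of TXNIP RNA was not tested. MLXIP measured 11.02, 11.02 and 10.91 in shCDK19 cells, against 11.31, 11.22 and 11.24 in shControl cells, and fell by 0.27 ± 0.049 (adjusted p 0.00317). ARRDC3 rose by 0.32 ± 0.070 in shCDK8 cells (adjusted p 0.00829), which measured 10.36, 10.38 and 10.46, against 10.19, 10.14 and 9.91 in shControl cells. In shCDK19 cells it was at 0.19 ± 0.070 (adjusted p 0.0813). ARRDC2 and MLX passed in neither line, with differences of at most 0.17.

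In all, 3 of 7 members changed in shCDK8 cells, where 22.3% of all genes did, and 4 of 7 in shCDK19 cells, where 19.9% did. In the direct comparison of shCDK8 with shCDK19 cells 3 of 7 changed, where 26% of genes did. TXNIP was at -0.31 ± 0.086 (adjusted p 0.0231), MLXIP at 0.26 ± 0.049 (adjusted p 0.00341) and MLXIPL at -0.18 ± 0.048 (adjusted p 0.0172). ARRDC4 did not pass, at -0.31 ± 0.12 and an adjusted p of 0.0818. Several of these calls rested on single arrays. Without shCDK8 replicate 1 or 3, or shControl replicate 1 or 2, ARRDC4 in shCDK8 cells missed the threshold, with adjusted p up to 0.0872. Without shCDK19 replicate 1 or shControl replicate 2 or 3, TXNIP in shCDK19 cells missed it, with adjusted p up to 0.0568. Between the lines, TXNIP missed it without shCDK8 replicate 1 or 2 or shCDK19 replicate 1 or 3 (up to 0.0803), and MLXIPL without shCDK8 replicate 2 or 3 or shCDK19 replicate 1 (up to 0.0605). ARRDC3 in shCDK19 cells reached 0.0427 without shControl replicate 1, and ARRDC4 between the lines reached 0.0230 without shCDK19 replicate 3.

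Among the other ChREBP or MondoA targets more genes fell than rose in either line in low glucose. In shCDK8 cells 2 of 19 targets were higher and 6 lower, and in shCDK19 cells 2 were higher and 8 lower. Their medians were -0.14 and -0.15 against -0.0017 and 0.011 for all genes. Of all genes 2222 were higher and 1885 lower in shCDK8 cells, 22.3% in all. In shCDK19 cells 1677 were higher and 1994 lower, 19.9% in all. The counts of every list here are to be read against these shares. The fatty acid elongase ELOVL6 fell by 0.83 ± 0.074 in shCDK8 and by 0.79 ± 0.074 in shCDK19 cells. In shCDK8 cells the zinc finger gene KLF10 rose by 0.66 ± 0.070, PNPLA3 rose by 0.56 ± 0.097 and the hormone gene FGF21 fell by 0.42 ± 0.073. In shCDK19 cells KHK rose by 0.68 ± 0.066, and the fatty acid synthesis enzymes ACACA and FASN fell by 0.49 ± 0.057 and by 0.44 ± 0.044. ARRDC1, another alpha-arrestin, rose by 0.27 ± 0.060 and by 0.29 ± 0.060 in shCDK8 and shCDK19 cells, and was the single gene of 4 other arrestins past the threshold in each. Of 9 ligases 2 were higher in shCDK8 cells, HECW1 at 0.39 ± 0.068 and ITCH at 0.18 ± 0.045. In shCDK19 cells 2 were higher and 3 lower, among them NEDD4L at 0.64 ± 0.051, HECW2 at -0.60 ± 0.088, NEDD4 at -0.52 ± 0.081 and SMURF1 at -0.32 ± 0.059. Of the 10 network genes MYC passed in both lines, at 0.30 ± 0.050 in shCDK8 and 0.23 ± 0.050 in shCDK19 cells. In shCDK19 cells MXD1 at -0.39 ± 0.090 and MXI1 at 0.28 ± 0.046 passed as well. Of the 11 thioredoxin system genes 2 were higher and 1 lower in shCDK8 cells, and 2 were higher in shCDK19 cells. PRDX6 rose in both, by 0.42 ± 0.071 and 0.35 ± 0.071.

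In normal growth ARRDC4 stood out among the members in shCDK19 cells. It measured 7.49, 7.71 and 7.51 in shCDK8 cells and 8.94, 9.02 and 8.88 in shCDK19 cells, against 7.29, 7.31 and 7.40 in shControl cells. All 3 shCDK19 arrays were at least 1 log2 unit above every array of the other lines. The rise of 1.61 ± 0.070, or 3.06-fold (adjusted p 2.04e-05), was rank 16 among 18404 genes ordered from the strongest increase. In shCDK8 cells ARRDC4 was at 0.23 ± 0.070 (adjusted p 0.0449). That call was lost in 7 of the other settings, with adjusted p of 0.0638 to 0.187, and without any single array other than shCDK8 replicate 1, with adjusted p up to 0.144. ARRDC4 was 1 of 7 members past the threshold in each line, where 24.9% of genes were in shCDK8 cells and 7.07% in shCDK19 cells. The count in shCDK19 cells was 1301 genes and fell to between 662 and 814 when any 1 of the 6 arrays was left out.

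Against shControl cells no other member passed in normal growth in either line. TXNIP measured 5.79, 5.22 and 5.46 in shCDK8 cells and 5.61, 5.63 and 5.58 in shCDK19 cells, against 5.48, 5.57 and 5.64 in shControl cells, and the 3 groups overlapped. MLXIPL measured 9.92, 9.77 and 9.87 in shCDK8 cells and 9.87, 9.92 and 9.74 in shCDK19 cells, against 9.66, 10.00 and 10.01 in shControl cells, again with overlap. Its knockdown differences were -0.036 ± 0.10 and -0.048 ± 0.10. The lines differed from each other in 3 of 7 members, where 26.1% of genes did. ARRDC4 was at -1.38 ± 0.070 in shCDK8 against shCDK19 cells (adjusted p 1.22e-05), ARRDC3 at 0.30 ± 0.087 (adjusted p 0.0394) and ARRDC2 at 0.32 ± 0.068 (adjusted p 0.0110). ARRDC3 measured 10.21, 10.57 and 10.34 in shCDK8 cells, against 10.15, 10.06 and 10.02 in shCDK19 cells. Its call was lost without shCDK8 replicate 2 or 3 or any shCDK19 array, with adjusted p up to 0.117, and without moderation (0.0703). Without shCDK8 replicate 1, which correlated least with its group, 7349 genes passed in place of 4805, and TXNIP then passed at an adjusted p of 0.0346.

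List counts in normal growth are to be read against 24.9% of all genes in shCDK8 and 7.07% in shCDK19 cells. Of the 19 other targets 3 were higher in shCDK19 cells, KHK at 0.44 ± 0.068, PNPLA3 at 0.41 ± 0.077 and FASN at 0.33 ± 0.055. In shCDK8 cells 4 were higher and 5 lower, among them HK2 at -0.68 ± 0.064, ELOVL6 at -0.60 ± 0.11, PNPLA3 at 0.40 ± 0.077 and ACLY at -0.38 ± 0.042. ARRDC1 rose by 0.37 ± 0.095 in shCDK8 and by 0.45 ± 0.095 in shCDK19 cells, as the single gene of the 4 other arrestins past the threshold. Of the 9 ligases 2 were higher and 2 lower in shCDK8 cells, and 2 were higher and 1 lower in shCDK19 cells. NEDD4L was at -0.44 ± 0.082 in shCDK8 and at 0.35 ± 0.082 in shCDK19 cells, and in the direct comparison at -0.79 ± 0.082. In the thioredoxin system 1 gene was higher and 4 lower in shCDK8 cells, with TXNRD1 at -0.77 ± 0.072 and PRDX6 at 0.63 ± 0.068, whereas TXNRD2 at -0.26 ± 0.062 was the single gene called in shCDK19 cells. Of the 10 network genes 1 was higher and 2 lower in shCDK8 cells, and 1 higher and 1 lower in shCDK19 cells. MXD1 fell in both, by 0.45 ± 0.091 and by 0.42 ± 0.091. Epithelial markers moved as well, 5 of 7 in shCDK8 cells, with CDH1 at -1.70, EPCAM at -1.31, KRT19 at -0.21, KRT18 at 0.84 and KRT8 at 0.53. In shCDK19 cells 4 of 7 were higher, with CDH1 at 0.42, KRT18 at 0.39, EPCAM at 0.34 and KRT8 at 0.19. In shCDK8 against shCDK19 cells CDH1 was at -2.12, EPCAM at -1.64, KRT19 at -0.41, KRT18 at 0.45 and KRT8 at 0.34. COL1A1 of fibroblasts was at -0.49 in shCDK8 against shControl and at -0.31 in shCDK8 against shCDK19 cells. The part of these markers in the member differences was not tested.

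ARRDC4 and ARRDC3 rose and MLXIPL fell under 5-fluorouracil in shControl cells by limma. None of these 3 calls held in the unmoderated analysis of variance, with adjusted p of 0.0625 for ARRDC4, 0.0509 for ARRDC3 and 0.0509 for MLXIPL. ARRDC4 measured 8.94 and 8.75 after 5FU, against 7.52 and 7.92 after DMSO, a rise of 1.13 ± 0.16 or 2.19-fold (adjusted p 0.0153). ARRDC3 measured 10.82 and 10.83 after 5FU, against 9.84 and 10.15 after DMSO, a rise of 0.83 ± 0.11 or 1.78-fold (adjusted p 0.0121). MLXIPL measured 7.78 and 7.90 after 5FU, against 8.40 and 8.46 after DMSO, and fell by 0.59 ± 0.084 (adjusted p 0.0146). None of these groups overlapped. TXNIP, at 5.76 and 5.86 after 5FU and 5.95 and 5.62 after DMSO, overlapped, with a difference of 0.027 ± 0.15. The count was 3 of 7 members, where 11.5% of all genes changed. Without either of the 5FU arrays all 3 calls were lost, with adjusted p up to 0.0989, and the genes called fell to 225 or 310 in place of 2109. Without DMSO replicate 2, ARRDC2 passed at an adjusted p of 0.0320. MLXIPL was also lower in DMSO than the 9.66, 10.00 and 10.01 of untreated shControl cells, a gap in which experiment and solvent cannot be told apart.

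Under 5FU the lines parted at ARRDC4. It measured 7.96 and 7.66 in shCDK8 cells and 9.19 and 9.15 in shCDK19 cells, against 8.94 and 8.75 in shControl cells. Both shCDK8 arrays lay near the 7.52 and 7.92 of shControl cells in DMSO, and the shCDK19 arrays were the highest of the experiment. Knockdown cells in DMSO were not analysed, so the response of either line to 5FU cannot be read from these levels. ARRDC4 was at -1.03 ± 0.16 in shCDK8 against shControl cells, or 2.05-fold lower (adjusted p 0.0347), and at 0.33 ± 0.16 in shCDK19 against shControl cells (adjusted p 0.481). It was the single member past the threshold in shCDK8 cells, where 3.5% of genes were, and without moderation its adjusted p was 0.124. In shCDK19 cells 0 of 7 members passed in limma, where 0.837% of genes did, with 2 members at an unadjusted p under 0.05 and 0 in the unmoderated analysis of variance. MLXIPL came closest. It measured 8.38 and 8.38 in shCDK19 cells, against 7.78 and 7.90 in shControl cells, at 0.54 ± 0.084 and an adjusted p of 0.0607. With all 35 arrays in 1 fit that p was 0.00356.

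Between the lines under 5FU, 2 of 7 members passed, where 5.14% of genes did. ARRDC4 was at -1.36 ± 0.16 in shCDK8 against shCDK19 cells (adjusted p 0.0152) and MLXIPL at -0.52 ± 0.084 (adjusted p 0.0306), with 0.0683 and 0.0893 without moderation. With 2 arrays per group these calls were fragile. Leaving out any 1 array of the compared groups ended the ARRDC4 call in shCDK8 cells (adjusted p 0.0986 to 0.208) and both calls between the lines (0.0603 to 0.189), and the genes called fell to between 88 and 158 in place of 645 and to between 40 and 158 in place of 946. For shCDK19 against shControl cells they fell to between 5 and 9 in place of 154.

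Among the pathway genes 5FU raised MXD1 by 0.94 ± 0.14, the single network gene of 10 called, where 11.5% of all genes passed. Of the 19 other targets 3 were higher and 3 lower. RGS16 was at 0.93 ± 0.099, HK2 at 0.55 ± 0.088, the desaturase SCD at -0.62 ± 0.062 and MID1IP1, an activator of acetyl-CoA carboxylase, at -0.51 ± 0.10. The alpha-arrestin ARRDC1 fell by 0.62 ± 0.11. Thioredoxin itself, TXN, rose by 0.48 ± 0.11 as the single gene of 11 called, and 0 of the 9 ligases passed in limma, with 3 at an unadjusted p under 0.05. In shCDK8 cells under 5FU ELOVL6 at -0.79 ± 0.065 and TXNRD1 at -0.37 ± 0.058 were the genes called in the 5 lists. In shCDK19 cells it was SCD, at -0.47 ± 0.062. The shares of all genes were 3.5% in shCDK8 and 0.837% in shCDK19 cells. Of the 7 epithelial markers CDH1 at -0.94 and KRT19 at -0.60 passed in shCDK8 cells under 5FU. EPCAM at -0.35, KRT18 at 0.37, KRT8 at 0.21, CDX2 at -0.08 and VIL1 at 0.07 did not. Their part in the ARRDC4 difference was not tested.

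**Figure D3:**
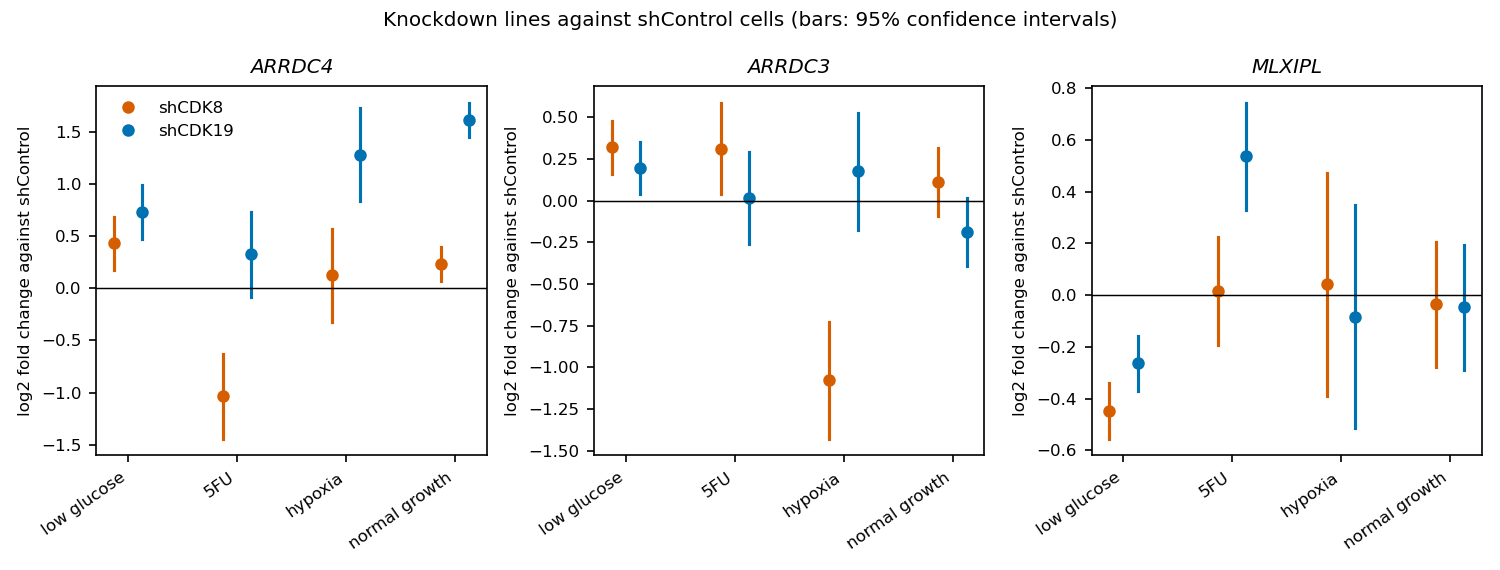
Log2 fold change of ARRDC4, ARRDC3 and MLXIPL in shCDK8 and shCDK19 cells against shControl cells in 4 conditions, with 95% confidence intervals from limma. ARRDC4 is at 1.61 in shCDK19 cells in normal growth and at -1.03 in shCDK8 cells under 5FU, and ARRDC3 at -1.08 in shCDK8 cells under hypoxia.

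ARRDC3 was the member that stood out under hypoxia. It measured 11.35 and 11.26 in shCDK8 cells and 12.51 and 12.60 in shCDK19 cells, against 12.21 and 12.54 in shControl cells. Both shCDK8 arrays lay below all 4 arrays of the other lines. ARRDC3 was at -1.08 ± 0.13 in shCDK8 against shControl cells, or 2.11-fold lower (adjusted p 0.0206). It was 1 of 7 members past the threshold, where 7.3% of genes were, and without moderation its adjusted p was 0.0873. In shCDK19 cells it was at 0.17 ± 0.13 (adjusted p 0.599). ARRDC4 measured 7.83 and 7.86 in shCDK8 cells and 9.18 and 8.81 in shCDK19 cells, against 7.57 and 7.87 in shControl cells. Its difference of 1.28 ± 0.17 in shCDK19 cells did not pass (adjusted p 0.102), although its groups did not overlap. In that comparison 0 of 7 members passed in limma, where 0.228% of genes did, with 2 at an unadjusted p under 0.05 and 0 in the unmoderated analysis of variance. With all 35 arrays in 1 fit ARRDC4 passed there, at an adjusted p of 1.38e-06.

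The lines differed from each other in 3 of 7 members under hypoxia, where 12.4% of genes did. In shCDK8 against shCDK19 cells ARRDC4 was at -1.15 ± 0.17 (adjusted p 0.0217), ARRDC3 at -1.25 ± 0.13 (adjusted p 0.0122) and ARRDC2 at 0.64 ± 0.098 (adjusted p 0.0236). ARRDC2 measured 9.19 and 9.21 in shCDK8 cells, against 8.56 and 8.57 in shCDK19 cells, with a gap between the lines far wider than that within each pair. Leaving out any 1 of the 4 arrays ended all 3 calls (adjusted p 0.108 to 0.189), as did the fit without moderation (0.0585 to 0.0922). Leaving out either shCDK8 array ended the ARRDC3 call against shControl cells (adjusted p up to 0.191). Without shControl replicate 2 of the hypoxia pair more genes passed, ARRDC2 and TXNIP among them for shCDK8 and ARRDC4 for shCDK19. Those calls set the knockdown arrays against shControl replicate 1 alone, the array with the highest median and lowest 75th percentile.

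No normoxic array of that experiment was used, so hypoxia was set against the normal growth arrays, and experiment and oxygen cannot be told apart in what follows. ARRDC3 rose in every line. In shCDK8 cells 11.35 and 11.26 under hypoxia stood against 10.21, 10.57 and 10.34 in normal growth, a rise of 0.93 ± 0.10 or 1.90-fold (adjusted p 1.05e-06). In shCDK19 cells 12.51 and 12.60 stood against 10.15, 10.06 and 10.02, a rise of 2.48 ± 0.10 or 5.57-fold (adjusted p 5.23e-15). In shControl cells 12.21 and 12.54 stood against 10.23, 10.26 and 10.30, a rise of 2.11 ± 0.10 or 4.33-fold (adjusted p 1.78e-13) and rank 13 among 18404 genes. No hypoxic array of any line overlapped its normal growth arrays.

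In shControl cells 4 of 7 members passed, where 47.8% of all genes did, so that share is near the background. Beside ARRDC3, ARRDC4 rose by 0.38 ± 0.14 (adjusted p 0.0252), MLXIP fell by 0.33 ± 0.074 (adjusted p 0.000930) and MLX fell by 0.22 ± 0.056 (adjusted p 0.00343). TXNIP, at 6.03 and 5.68 under hypoxia and 5.48, 5.57 and 5.64 in normal growth, was at 0.29 ± 0.13 and missed the threshold (adjusted p 0.0674). In shCDK8 cells 2 of 7 passed, where 9.1% of genes did, ARRDC3 and MLX at -0.21 ± 0.056 (adjusted p 0.0198). In shCDK19 cells 2 of 7 passed, where 31.3% of genes did, ARRDC3 and MLXIP at -0.42 ± 0.074 (adjusted p 6.02e-05). The ARRDC3 rise held without any 1 array, whereas smaller changes did not. In shControl cells ARRDC4 was lost without hypoxia replicate 2 or normal growth replicate 1 or 2 (adjusted p up to 0.222), MLX without hypoxia replicate 2 (0.144) and MLXIP without hypoxia replicate 1 (0.0650). TXNIP and MLXIPL passed without hypoxia replicate 2, which left replicate 1 as the only hypoxic shControl array. MLXIPL also passed without normal growth replicate 1. In shCDK8 cells MLX was lost without either hypoxia array or normal growth replicate 2 (up to 0.160), and ARRDC2 passed without normal growth replicate 2 (0.0440). In shCDK19 cells MLX passed without normal growth replicate 3 or hypoxia replicate 1 (down to 0.0331).

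The same lists were read under hypoxia. In shControl cells 47.8% of all genes passed, the share against which the list counts are to be read. In shControl cells the hexokinase HK2, a known hypoxia target, was at 2.55 ± 0.097, PFKFB3 at 0.69 ± 0.065, ELOVL6 at -1.03 ± 0.17 and MID1IP1 at -0.59 ± 0.073, within 6 higher and 6 lower of 19 targets. Of 10 network genes 5 were higher and 2 lower, with MXD1 at 2.07 ± 0.13, MXI1 at 1.19 ± 0.068 and MNT at 0.72 ± 0.086. Of 9 ligases 4 were lower, among them NEDD4 at -0.85 ± 0.14, and of the 4 other arrestins ARR3 was at 0.53 ± 0.10 and ARRB1 at -0.39 ± 0.094. In shCDK8 cells, hypoxia against normal growth, ARR3 was at 0.10 ± 0.10 and ARRB1 at 0.33 ± 0.094. Against hypoxic shControl cells ARR3 was at -0.50 in shCDK8 and -0.51 in shCDK19 cells, and passed in neither. In the thioredoxin system of shControl cells 2 of 11 were higher and 6 lower, with TXNRD1 at 0.37 ± 0.066 and PRDX6 at -0.39 ± 0.082. Against hypoxic shControl cells, hypoxic shCDK8 cells had MXD1 at -2.33 ± 0.18, HK2 at -1.23 ± 0.095, TXNRD1 at -1.12 ± 0.097, MXI1 at -0.94 ± 0.078, PRDX6 at 1.01 ± 0.11, HECW1 at 0.92 ± 0.095 and ARRDC1 at 0.51 ± 0.085. With KLF10 at 0.53 these were the genes called in the 5 lists in that comparison, where 7.3% of all genes passed. Of the 7 epithelial markers CDH1 at -1.36, EPCAM at -1.13, KRT19 at -0.53, KRT18 at 0.73 and KRT8 at 0.45 passed, and VIL1 at -0.38 and CDX2 at -0.06 did not. Of the 4 fibroblast markers COL1A1 passed, at -0.98. Their part in the ARRDC3 difference was not tested.

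**Figure D4:**
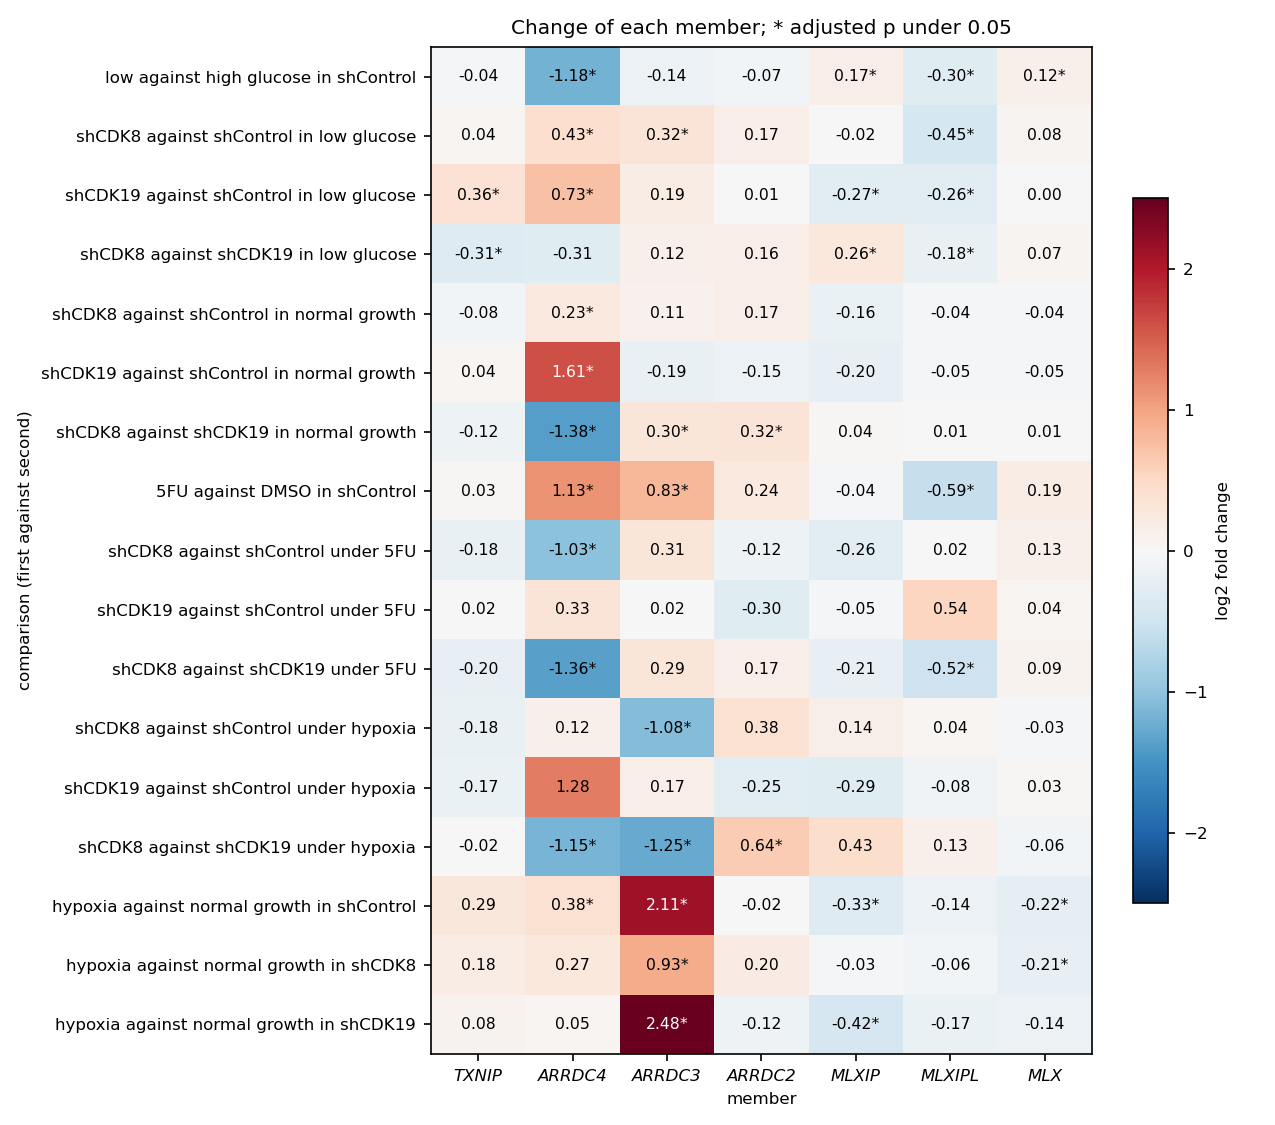
Log2 fold change of each member (columns) in 17 comparisons (rows, first group against second), with a star where the adjusted p is under 0.05. ARRDC4 and ARRDC3 hold the changes past 1 in size, and TXNIP stays between -0.31 and 0.36.

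The effect of a knockdown under stress was set against its effect in normal growth, as a difference of effects in 1 fit of all 35 arrays. Each such difference also crosses experiments, and those in low glucose cross media, so condition and experiment cannot be told apart. Epithelial markers also differed between the lines to unlike extents. In shCDK8 against shCDK19 cells CDH1 was at -2.12 in normal growth, -1.59 under hypoxia, -0.82 under 5FU and -0.02 in low glucose. KRT18 was at 0.45, 0.49, 0.21 and 0.26. Their part in the differences below was not tested. For shCDK8, 1 of 7 members passed in low glucose, where 12.8% of genes did, 1 under 5FU, where 11.9% did, and 1 under hypoxia, where 11.5% did. These were MLXIPL in low glucose (-0.41 ± 0.13, adjusted p 0.0357), ARRDC4 under 5FU (-1.27 ± 0.19, adjusted p 5.10e-05) and ARRDC3 under hypoxia (-1.19 ± 0.14, adjusted p 8.00e-06). For shCDK19, 1 of 7 passed in low glucose, where 1.79% of genes did, and 2 under 5FU, where 4% did. ARRDC4 passed in low glucose (-0.88 ± 0.17, adjusted p 0.00515) and under 5FU (-1.29 ± 0.19, adjusted p 0.000141), and MLXIPL under 5FU (0.58 ± 0.14, adjusted p 0.0187). Under hypoxia 0 of 7 passed for shCDK19 in limma, where 2.08% of genes did, with 1 at an unadjusted p under 0.05 and 0 in the unmoderated analysis of variance. ARRDC4 there was at -0.34 ± 0.19 (adjusted p 0.388). The ARRDC4 and ARRDC3 differences kept their calls without any 1 array. That of MLXIPL in shCDK8 cells was lost without 8 of the 12 arrays (adjusted p up to 0.137), and that in shCDK19 cells without 6 of 10 (up to 0.108). Without shControl hypoxia replicate 2, which left replicate 1 alone in that group, ARRDC3 passed for shCDK19 and ARRDC2 and MLXIP for shCDK8 under hypoxia.

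Over the 14 groups 3 members spanned a wide range of group means, MLXIPL with 2.71, ARRDC4 with 2.63 and ARRDC3 with 2.56 log2 units, or 6.56-fold, 6.19-fold and 5.90-fold. The median span of all genes was 0.78, and 98.3% to 98.6% of genes spanned less than each of these 3. MLXIP spanned 1.08, MLX 0.64, ARRDC2 0.64 and TXNIP 0.39. For TXNIP, 12.4% of genes spanned less.

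In the order of the ARRDC4 levels 1 step stood out. The highest 4 group means were 9.17 ± 0.027 (SD, n = 2) in shCDK19 cells under 5FU, 8.99 ± 0.27 (n = 2) in shCDK19 cells under hypoxia, 8.95 ± 0.071 (n = 3) in shCDK19 cells in normal growth and 8.85 ± 0.13 (n = 2) in shControl cells under 5FU, and each overlapped its neighbour. A gap of 1.01 separated them from the next 7 groups, which lay between 7.84 in shCDK8 cells under hypoxia and 7.33 in shControl cells in normal growth. All low glucose groups were at the bottom, at 7.28 in shCDK19, 6.97 in shCDK8 and 6.54 in shControl cells. The step into these groups was 0.057, and its arrays overlapped, as did those of shCDK19 and shCDK8 cells. The last step did not overlap.

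For ARRDC3 the 3 hypoxia groups came first, at 12.55, 12.38 and 11.30, followed by the 3 groups treated with 5FU, at 11.14, 10.84 and 10.83. The other 8 groups lay between 10.40 and 9.99, and most neighbours among them overlapped. For MLXIPL high glucose (10.56) and low glucose shControl cells (10.26) came first without overlap. The 4 groups of the 5FU experiment came last, between 8.43 and 7.84, with a gap of 1.24 above them. The highest TXNIP mean was 5.86 ± 0.24 (n = 2) in shControl cells under hypoxia and the lowest 5.47 ± 0.056 (n = 3) in shControl cells in low glucose, and each of the 14 groups overlapped its neighbour in the order. ARRDC2 ran between 9.20 in shCDK8 and 8.56 in shCDK19 cells under hypoxia. MLXIP ran between 11.26 in low glucose shControl and 10.18 in shCDK8 cells under 5FU. MLX ran between 10.71 in low glucose and 10.07 under hypoxia, both in shCDK8 cells, and all groups of the glucose experiment stood above every other group for MLX.

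**Figure D5:**
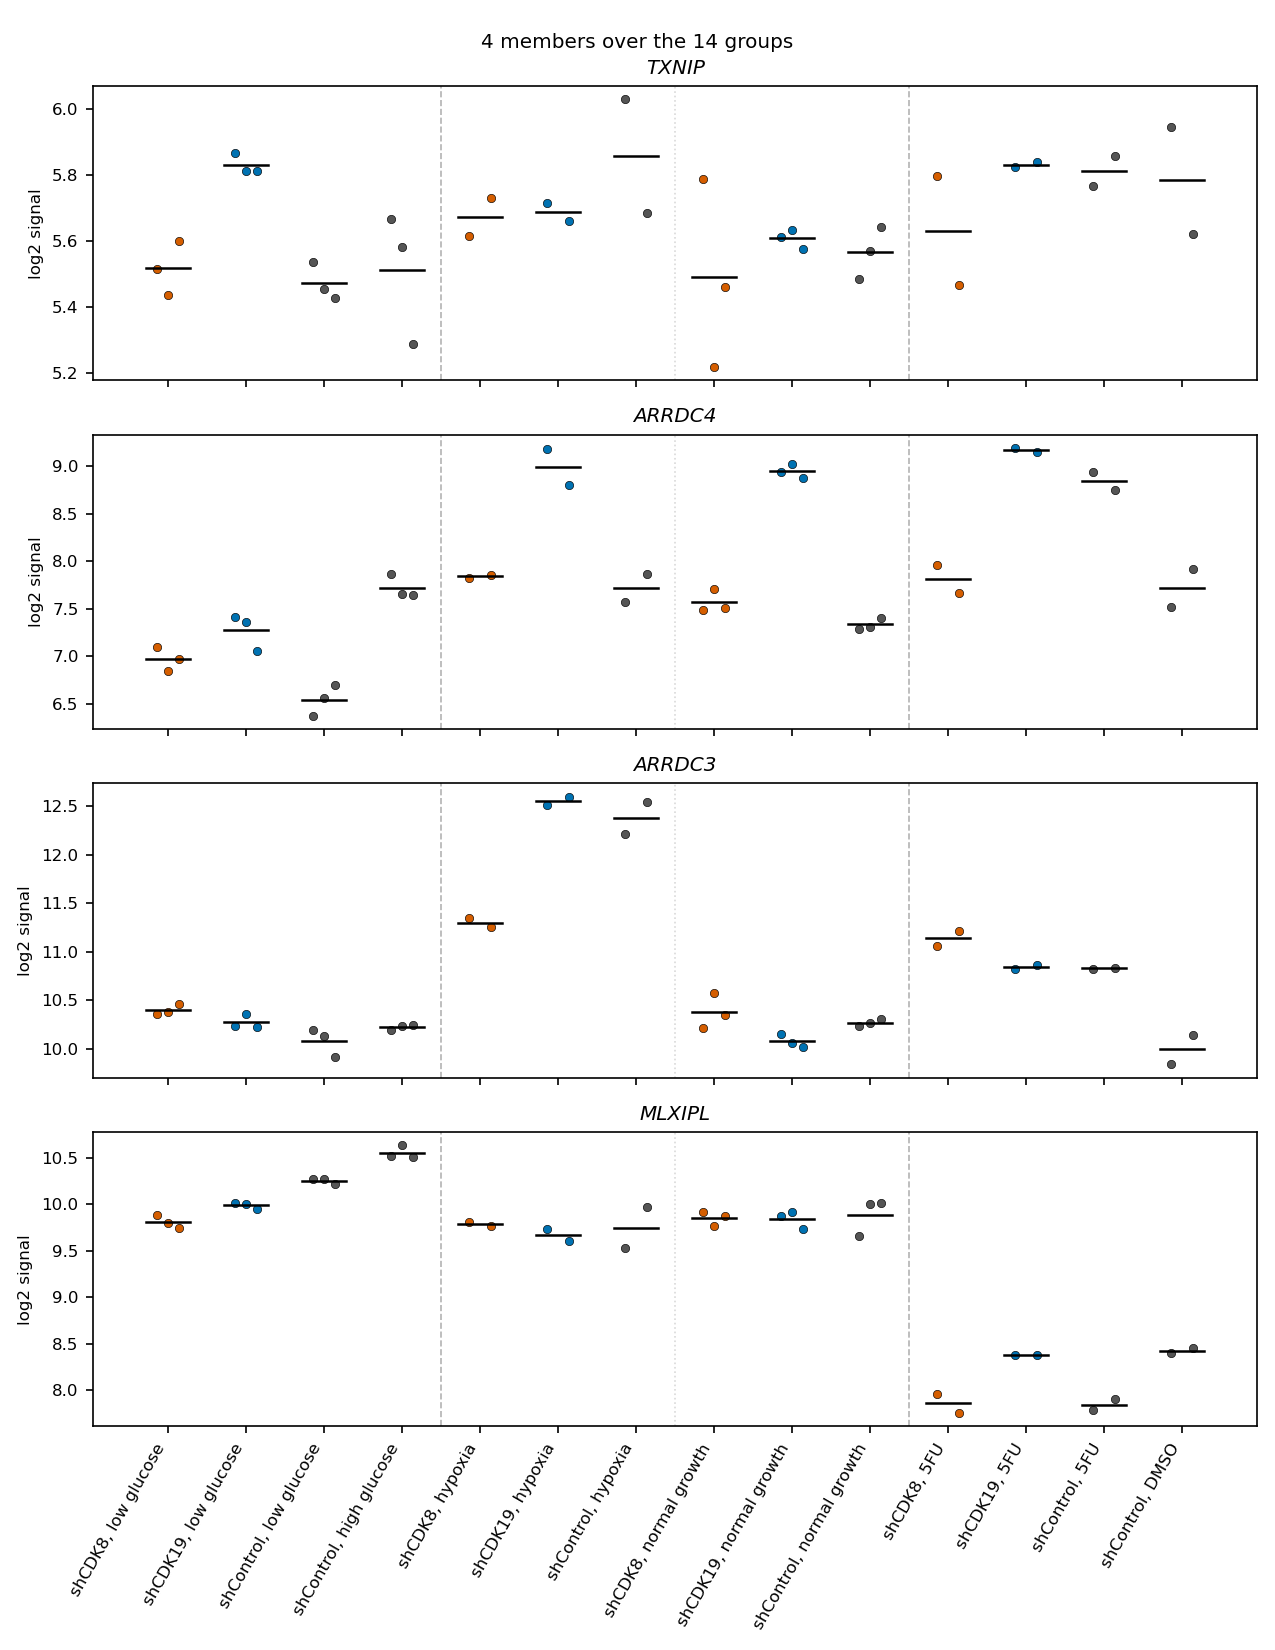
Log2 signal of TXNIP, ARRDC4, ARRDC3 and MLXIPL on each array over the 14 groups, with 1 point per array and a bar at each group mean. Dashed lines separate the glucose and 5FU experiments from hypoxia and normal growth. ARRDC4 is lowest in low glucose and highest in shCDK19 cells outside low glucose, ARRDC3 is highest under hypoxia, and MLXIPL is lowest in the 5FU experiment.

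The members did not form a single pattern over the 14 group means. Pearson's r, given as a description since groups share lines and experiments, was 0.48 between TXNIP and ARRDC4, 0.38 between ARRDC4 and ARRDC3 and 0.41 between TXNIP and ARRDC3. MLXIP and MLXIPL had 0.77, and ARRDC4 had -0.72 with MLXIP and -0.46 with MLXIPL. Without the 4 groups of the glucose experiment these last values were 0.74, -0.44 and -0.26. Among 17940 genes above the floor in every group mean, the 5 nearest to ARRDC4 were WWP1 (0.87), GSTP1 (0.84), CLTC (0.84), SLC60A1 (0.83) and MIR200A (0.82). Their spans were 0.37 to 0.99 log2 units, against 2.63 for ARRDC4. Genes named here were picked for the highest of all these correlations, and shared regulation was not tested. Those nearest to ARRDC3 were AURKC (0.94), GUK1 (0.94), EFCAB3 (0.94), BHLHE40 (0.93) and PIM1 (0.93). Their spans were 0.55, 0.91, 0.48, 2.31 and 1.90 log2 units, against 2.56 for ARRDC3. EFCAB3 was near the floor of 4.32, at 4.58 in high glucose. Those nearest to TXNIP were TENM1 (0.92), KCNH1 (0.92), CA6 (0.91), CRISPLD1 (0.91) and TRMT9B (0.91), whose spans were 0.32 to 0.57 log2 units.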

How the data were processed

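The 35 HCT116 RNA samples had been hybridised to Affymetrix HuGene 1.0 ST arrays, 1 sample per array. Deposited values are on a log2 scale. The submitters' processing notes credit Partek to the authors. How background was corrected and arrays were normalized is not given in the labels. Every array shares a floor of 4.32 (20 on the linear scale) and a ceiling of 14.29 (20000). Of 32321 transcript clusters, 19158 carry 1 symbol, 1388 several and 11775 none. The brightest cluster was kept for each of 18404 genes. Comparisons within an experiment were fitted with limma 3.58.1 in R 4.3.3 on the arrays of that experiment, and those across experiments on all 35 arrays. P-values are two-sided and Benjamini-Hochberg adjusted over all genes, and an adjusted p under 0.05 was called. An unmoderated one-way analysis of variance, the method in the submitters' design text, was an alternative. The code was tested on simulated data. The members and lists were chosen with earlier results of these data known. All members are named, with up to 4 called genes of a list, those with the largest changes, per comparison. For 3 members the 5 genes of most like pattern are named. Genes outside that rule are named for CDK8, CDK19 and cell markers. Alternatives were another scaling, quantile normalization, no dim genes, all clusters, an intensity trend, no moderation, another set of arrays, a replicate block and leaving out each array.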

Additional observations from a re-analysis of the deposited data

Results flagged for a closer look

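The effect of a knockdown, set against its own effect in normal growth, differed in 6 member and condition pairs by the interaction term of limma over all 35 arrays. For shCDK8 the differences were -0.41 for MLXIPL in low glucose, -1.27 for ARRDC4 under 5FU and -1.19 for ARRDC3 under hypoxia, with adjusted p of 0.0357, 5.10e-05 and 8.00e-06. For shCDK19 they were -0.88 for ARRDC4 in low glucose, -1.29 for ARRDC4 under 5FU and 0.58 for MLXIPL under 5FU, with adjusted p of 0.00515, 0.000141 and 0.0187. Each contrast also crosses experiments, and those in low glucose cross media, so condition and experiment cannot be told apart.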

How the results depend on the processing

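No called change of a member reversed. Over the alternatives other than leaving out arrays, 1197 member results kept their side of the threshold, 49 lost a call and 19 gained one. The count of members past the threshold moved by over 1.5 times as follows. With each array's median subtracted it was 2 for low against high glucose, 0 for shCDK8 in normal growth, 1 for shCDK19 under 5FU, 1 for shCDK19 under hypoxia, 1 for hypoxia against normal growth in shCDK8, and, for effects against normal growth, 0 for shCDK8 in low glucose and 1 for shCDK19 under 5FU. With quantile normalization it was 0 for shCDK8 in normal growth, 2 for hypoxia against normal growth in shControl and 2 for the shCDK19 effect in low glucose. With every transcript cluster tested it was 0 for shCDK8 in normal growth, 0 for shCDK8 under 5FU, 1 for shCDK8 against shCDK19 under 5FU and 0 for the shCDK8 effect in low glucose. With an intensity trend it was 0 for shCDK8 in normal growth. Without the dimmest genes it was 1 for shCDK19 under 5FU and 1 under hypoxia. That setting left out TXNIP, so its counts cover the other members. Without moderation it was 0 for shCDK8 in normal growth, for 5FU against DMSO, and for shCDK8 against shControl and against shCDK19 under both 5FU and hypoxia. With all 35 arrays in 1 fit it was 2 for low against high glucose, 1 for shCDK8 against shCDK19 in low glucose, 0 for shCDK8 in normal growth, and 2 for shCDK8 and for shCDK19 under 5FU and under hypoxia. With the arrays of the compared experiments alone it was 1 for hypoxia against normal growth in shCDK8 and 1 for the shCDK19 effect under 5FU. The cause was not tested.

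With the replicate number as a block the count was 0 for shCDK8 in normal growth, under 5FU and under hypoxia, 1 for shCDK8 against shCDK19 under 5FU and under hypoxia, and 0 for the shCDK8 effect in low glucose. Same-numbered arrays correlated at -0.62 to 0.41 in their deviations from the group means. Of the 7 comparisons with 3 pairs, 0 had every pair above 0.1. Of the 7 with 2 arrays per group, whose 2 pairs have the same correlation by construction, 2 were above 0.1, at 0.13 for shCDK8 against shCDK19 under 5FU and 0.41 for shCDK19 against shControl under hypoxia. Since 2 pairs are too few to show pairing, the numbers were not taken to pair arrays.

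With 1 array left out the count ran from 2 to 4 for low against high glucose, 2 to 3 for shCDK8, 3 to 5 for shCDK19 and 1 to 3 for shCDK8 against shCDK19 in low glucose. In normal growth it ran from 0 to 1, 1 to 1 and 2 to 4 for the same 3 comparisons. For 5FU against DMSO it ran from 0 to 4, and it was 0 throughout for the 3 comparisons of lines under 5FU. Under hypoxia it ran from 0 to 3 for shCDK8 and 0 to 1 for shCDK19, and was 0 for shCDK8 against shCDK19. For hypoxia against normal growth it ran from 1 to 2 in shCDK8, 2 to 3 in shCDK19 and 3 to 4 in shControl. For effects against normal growth it ran from 0 to 1, 1 to 1 and 1 to 3 for shCDK8 and 1 to 1, 1 to 2 and 0 to 1 for shCDK19, in low glucose, under 5FU and under hypoxia. With 1 array left in a group of 2, that array is assumed to vary like the others.

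The number of all genes called ranged widely over the settings other than leaving out arrays. It was 781 to 1851 for shCDK19 in normal growth (1301 as reported), 849 to 3526 for 5FU against DMSO (2109), 238 to 1713 for shCDK8 under 5FU (645), 20 to 1067 for shCDK19 under 5FU (154) and 287 to 2221 for shCDK8 against shCDK19 under 5FU (946). Under hypoxia it was 312 to 6392 for shCDK8 (1343), 1 to 2641 for shCDK19 (42) and 764 to 5925 between them (2273). For hypoxia against normal growth in shCDK8 it was 856 to 1891 (1674). For effects against normal growth it was 978 to 2359 for shCDK8 under hypoxia (2118) and 146 to 458, 354 to 918 and 60 to 515 for shCDK19 in low glucose, under 5FU and under hypoxia (329, 736 and 383).

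Limits apply throughout. Each target has 1 hairpin line, no group has more than 3 arrays, and the normalization of the deposited values is unknown. The TXNIP cluster was dim on every array, and dim signals limit the measurement of small changes. No member had a further single-gene cluster to set beside the one used.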
